A study of Mus musculus with 2 samples.

Results

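The tumour necrosis factor (TNF) superfamily was examined in chronic myeloid leukemia (CML) stem cells, or LSCs, of transplanted mice. Its members were taken by gene symbol, as every symbol that begins with Tnfsf or Tnfrsf and a number together with Tnf, Lta, Ltb, Ltbr, Fas, Fasl, Cd40, Cd40lg, Cd27, Cd70 and Ngfr. These were 42 of the 23284 genes listed, 17 ligands and 25 receptors. RNA-seq comprised 1 WT and 1 STAP-1 KO library of such LSCs, from young adult mice on the C57BL/6J background. In both genotypes, LSK cells (negative for lineage markers, positive for Sca-1 and c-Kit) of donor mice had received human p210 BCR-ABL and GFP from a retrovirus and were transplanted into lethally irradiated C57BL/6SJL recipients together with marrow of that strain. GFP+ CD45.2+ LSK cells were sorted from these recipients in the second week. STAP-1 KO donors carried a targeted disruption of Stap1 in all their cells. How many animals entered each library was not stated. With 1 library per genotype there is no replicate check, no difference between the libraries was tested, and differences of genotype, animal, sort and library preparation cannot be told apart.

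TNF superfamily ligands are mostly trimeric membrane proteins, some of which are shed, and they act on receptors with cysteine-rich extracellular repeats. Receptors with a cytoplasmic death domain, such as FAS and TNFR1, can recruit FADD or TRADD and start apoptosis or NF-κB signaling. Most others bind TRAF adaptors and signal to NF-κB and MAP kinases, and decoy receptors bind a ligand without such a signal. TNF is known as an inflammatory regulator of hematopoietic and leukemic stem cells, and CD27 marks a part of the normal stem and progenitor compartment.

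Values are FPKM, read numbers that the authors scaled to transcript length and library size, so that levels of different genes can be compared per length. Log2 ratios compare STAP-1 KO with WT, with 0.1 FPKM added to both, for genes whose mean reached 1 FPKM, and a gene was counted as higher or lower at a difference of 2-fold or more. Folds are plain ratios of the listed values, without the addition, and so exceed what the log2 ratio gives for low genes. Where a pair of values is given, the WT value comes first. The targeted gene Stap1 had 61.95 FPKM in WT and 0.309 FPKM in STAP-1 KO LSCs. Of the genes of sorting antigens, Kit had 468 and 30.1 FPKM, Ly6a (Sca-1) 285 and 106 FPKM, and Ptprc (CD45) 107 and 38.2 FPKM. The progenitor marker Cd34, which was not sorted on, had 281 and 194 FPKM. Kit differed strongly between 2 populations sorted by the same gate. The steps between low values corresponded to about 7500000 effective reads in WT and 10470000 in the STAP-1 KO library. From these depths the reads behind each value were estimated, and 95% counting intervals of the log2 ratio (Clopper-Pearson, without pseudocount) were derived. They cover counting error only.

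Transcripts of the family were present in both libraries, and their summed level was lower in STAP-1 KO LSCs. The 42 members added up to 1835 FPKM in WT and 698 FPKM in STAP-1 KO LSCs. Receptors made up most of this, with 1645 and 590.3 FPKM, against 190.4 and 108 FPKM for the ligands. A single receptor, Tnfrsf9, accounted for 76.0% of the receptor sum in WT and for 62.9% in the STAP-1 KO library. Without it the receptor sums were 395 and 219 FPKM. Most of that remaining difference lay in Tnfrsf18 alone, with 232 and 61.6 FPKM. A level of at least 1 FPKM was reached by 31 members in WT and by 28 in the STAP-1 KO library, and 32 reached a mean of 1 FPKM.

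**Figure D1:**
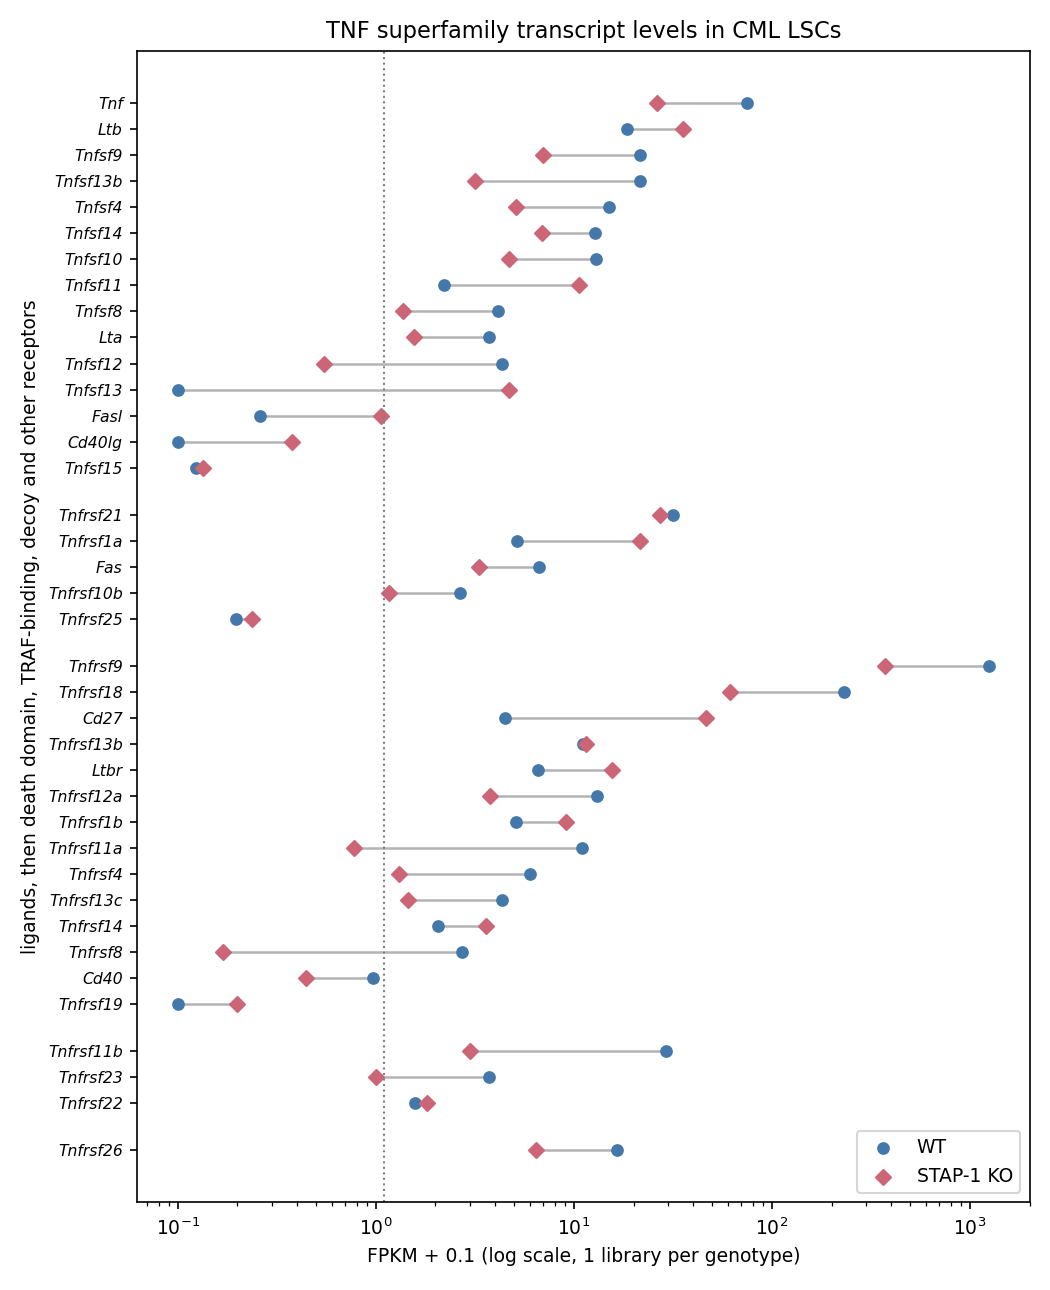
Levels of the 38 members listed above 0 in at least 1 library, as FPKM + 0.1 on a log axis, with circles for the WT library and diamonds for the STAP-1 KO library. The dotted line marks 1 FPKM, and Tnfrsf9 stands far to the right at 1250.4 and 371 FPKM while most other members lie below 75 FPKM.

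Of the 32 members at a mean of 1 FPKM or more, 20 were at least 2-fold lower in STAP-1 KO LSCs, which is 62.5%, against 22.2% of the 10974 genes with such a mean. At least 2-fold higher were 5 members, or 15.6%, against 11.5% of those genes. The median log2 ratio was -1.41 for the 32 members and -0.04 for the 10974 genes. The medians of ligands and receptors were -1.48 (12 genes) and -1.28 (20 genes), and -1.48 (8 genes) and -0.79 (12 genes) when a mean of 5 FPKM was asked for. The members that were lower were Tnf, Lta, Tnfsf4, Tnfsf8, Tnfsf9, Tnfsf10, Tnfsf12 and Tnfsf13b among the ligands and Tnfrsf4, Tnfrsf8, Tnfrsf9, Tnfrsf10b, Tnfrsf11a, Tnfrsf11b, Tnfrsf12a, Tnfrsf13c, Tnfrsf18, Tnfrsf23, Tnfrsf26 and Fas among the receptors. Those that were higher were Tnfsf11, Tnfsf13, Cd27, Tnfrsf1a and Ltbr. For each of the 24 members past the cut-off that had a value above 0 in both libraries, the counting interval lay on 1 side of 0.

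**Figure D2:**
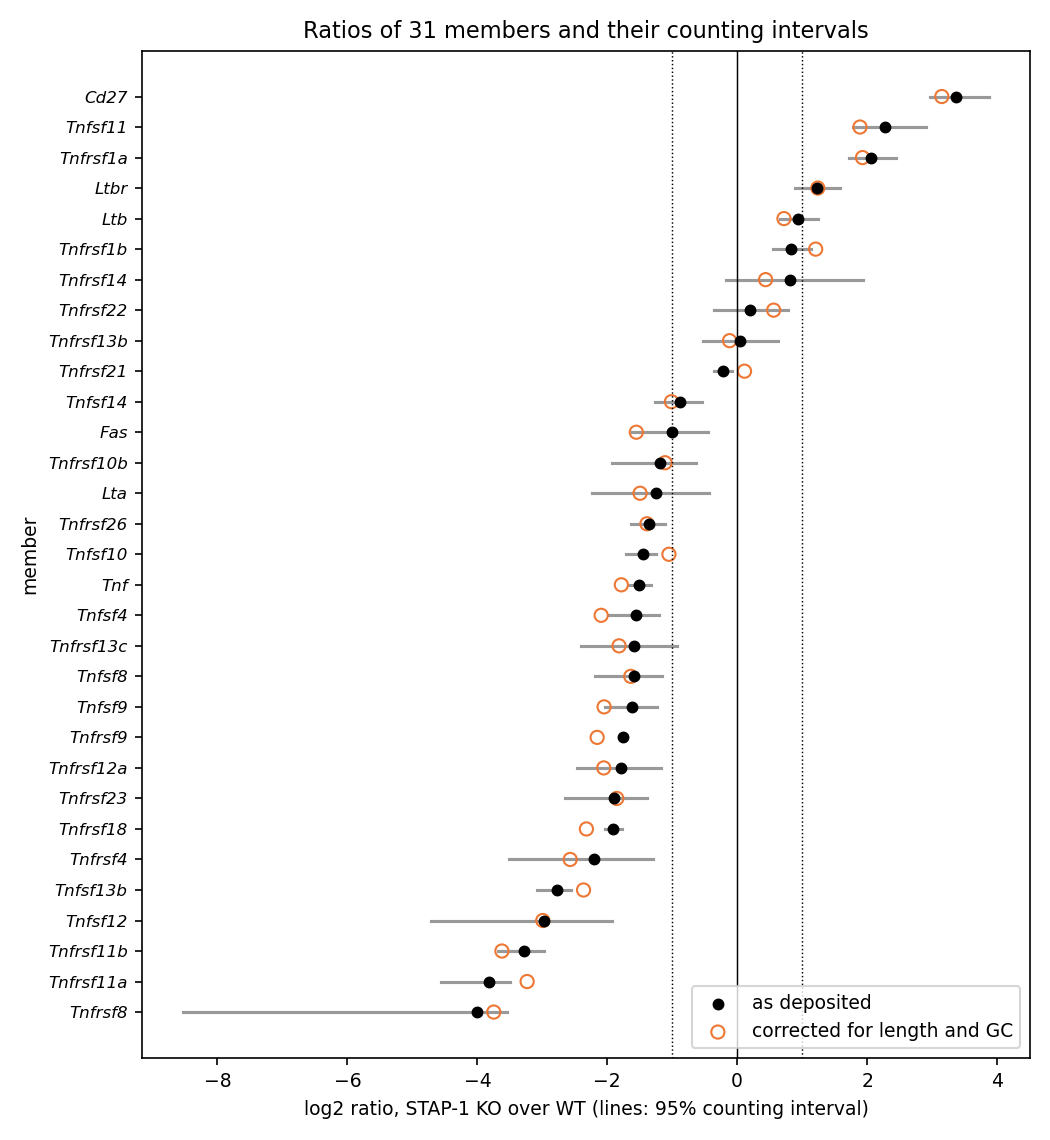
Log2 ratios of STAP-1 KO over WT for the 31 members with a mean of 1 FPKM or more and values above 0 in both libraries. Black points are the deposited values, grey lines the 95% counting intervals and open circles the values after correction for transcript length and GC content, and the ratios run from -4.01 for Tnfrsf8 to 3.36 for Cd27 with dotted lines at 2-fold.

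The highest of the ligands was Tnf, the prototype inflammatory cytokine of the family. It had 74.4 FPKM in WT and 26.2 FPKM in STAP-1 KO LSCs, a log2 ratio of -1.51 (counting interval from -1.68 to -1.33). Its neighbour Lta, which encodes lymphotoxin alpha and shares the receptors of TNF, had 3.63 and 1.46 FPKM. It was likewise lower, although only about 31.9 and 18.0 reads stood behind the values (log2 ratio -1.26, counting interval from -2.23 to -0.43). Ltb, the membrane anchor of lymphotoxin, had 18.5 and 35.7 FPKM and a log2 ratio of 0.94, just under the cut-off in the other direction. In the STAP-1 KO library Ltb, not Tnf, was therefore the ligand transcript with the highest level. The log2 ratio of Ltb was 0.39 after correction for transcript length alone and 0.72 after correction for length and GC content.

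The ligands of 4-1BB, OX40 and CD30 were each lower in STAP-1 KO LSCs. Tnfsf9 (4-1BB ligand) had 21.4 and 6.92 FPKM, Tnfsf4 (OX40 ligand) had 14.9 and 4.98 FPKM, and Tnfsf8 (CD30 ligand) had 4.03 and 1.28 FPKM. Their folds were close to each other, at 3.09, 2.98 and 3.15, and exons of Tnfsf9 overlap the opposite-strand transcript Gm11110. Tnfsf14 (LIGHT), a ligand of HVEM and of the lymphotoxin beta receptor, had 12.6 and 6.78 FPKM and did not reach the cut-off (log2 ratio -0.89). Tnfsf10 encodes TRAIL, which triggers death receptors, and had 12.8 and 4.62 FPKM (log2 ratio -1.46).

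Among the ligands that act on B cells and osteoclasts the directions differed. Tnfsf13b (BAFF), a B cell survival factor, had 21.6 FPKM in WT and 3.08 FPKM in STAP-1 KO LSCs, 7.01-fold lower (log2 ratio -2.77, counting interval from -3.07 to -2.55). Tnfsf11 encodes RANKL, the osteoclast differentiation factor. It had 2.11 and 10.6 FPKM, from about 32.0 and 224 reads, and was 5.01-fold higher in STAP-1 KO LSCs (log2 ratio 2.27, counting interval from 1.79 to 2.91). Tnfsf12 (TWEAK) had 4.23 and 0.450 FPKM, whereas Tnfsf13 (APRIL) was listed at 0 in WT and had 4.62 FPKM in STAP-1 KO LSCs, so that no fold is given for it. The latter genes are adjacent on the minus strand of chromosome 11, and both overlap exons of an annotated joint transcript, Tnfsfm13. Exons of Tnfsf13 also overlap the opposite-strand transcript Tnfsf13os. How reads were divided between Tnfsf12 and Tnfsf13 is therefore uncertain. Their summed level was 4.23 and 5.07 FPKM, and a sum cannot show whether the genes differed in opposite directions.

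The other ligands were at or near 0. Fasl (FAS ligand) had 0.159 and 0.967 FPKM, from about 2.05 and 17.5 reads, and Cd40lg was listed at 0 in WT and at 0.275 FPKM in STAP-1 KO LSCs. Tnfsf15 had 0.0237 and 0.0340 FPKM, and Cd70 and Tnfsf18 were listed at 0 in both libraries. These 5 genes were below the mean of 1 FPKM and were given no ratio.

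Tnfrsf9 was by far the most abundant receptor transcript. The gene encodes the co-stimulatory receptor 4-1BB (CD137) and lies on chromosome 4 from 150914562 to 150946102 on the plus strand (GRCm38). It had 1250.4 FPKM in the WT library, the 48th highest value of all genes listed, and 371 FPKM in STAP-1 KO LSCs, where it ranked 215th. The difference was 3.37-fold (log2 ratio -1.75, counting interval from -1.79 to -1.71) and rested on about 17846 and 7411 reads. Next came Tnfrsf18, which encodes the co-stimulatory receptor GITR, with 232 and 61.6 FPKM, 3.76-fold lower in STAP-1 KO LSCs. Together these genes held 90.1% of the receptor sum in WT and 73.3% in the STAP-1 KO library. An antisense transcript, Gm16008, overlaps exons of Tnfrsf18 on the opposite strand, and the sources name no strand setting in the counting.

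Several TRAF-binding receptors were much lower in STAP-1 KO LSCs. Tnfrsf11a encodes RANK, the receptor of RANKL, and had 10.9 FPKM in WT and 0.675 FPKM in STAP-1 KO LSCs, 16.1-fold lower (log2 ratio -3.82). Tnfrsf8 (CD30) had 2.63 and 0.0699 FPKM. Its log2 ratio was -4.01, and -1.76 at a pseudocount of 1 FPKM, where Tnfrsf11b (-2.95) and Tnfrsf11a (-2.82) lay below it. Only about 2.35 reads stood behind the STAP-1 KO value and the counting interval was wide, from -8.54 to -3.55. Tnfrsf4 (OX40) had 5.92 and 1.21 FPKM (log2 ratio -2.20), Tnfrsf12a (FN14, the TWEAK receptor) 12.9 and 3.67 FPKM (log2 ratio -1.79), and Tnfrsf13c (BAFF receptor) 4.24 and 1.35 FPKM (log2 ratio -1.58).

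A smaller group of TRAF-binding receptors went the other way or differed little. Cd27, a co-stimulatory receptor found on lymphocytes and on progenitors, showed the largest ratio above 0 of the 31 members with one. It had 4.39 FPKM in WT and 46.1 FPKM in STAP-1 KO LSCs, from about 44.3 and 652 reads, and was 10.5-fold higher (log2 ratio 3.36, counting interval from 2.97 to 3.88). Its exons hold an annotated miRNA gene, Mir8113, on the same strand. Ltbr, the lymphotoxin beta receptor, had 6.51 and 15.4 FPKM (log2 ratio 1.23). Tnfrsf1b, which encodes TNFR2, had 5.02 and 8.97 FPKM, and Tnfrsf14 (HVEM) had 1.95 and 3.49 FPKM. Both had the same 1.79-fold ratio, below the cut-off, and the counting interval of Tnfrsf14 included 0 (from -0.17 to 1.94). Tnfrsf13b, which encodes the BAFF and APRIL receptor TACI, was nearly level, with 11.1 and 11.5 FPKM. Its counting interval, from -0.52 to 0.63, does not show that the levels were equal. Cd40 (0.865 and 0.344 FPKM) and Tnfrsf19 (0 and 0.0998 FPKM) were below the mean of 1 FPKM, and Tnfrsf17 was listed at 0 in both libraries.

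The death domain receptors did not move together. Tnfrsf1a, which encodes the main TNF receptor TNFR1, had 5.07 FPKM in WT and 21.3 FPKM in STAP-1 KO LSCs, 4.21-fold higher (log2 ratio 2.05, counting interval from 1.72 to 2.45). Fas had 6.59 and 3.23 FPKM and stood at the cut-off, with a log2 ratio of -1.01 and a counting interval from -1.63 to -0.45. Tnfrsf10b, the mouse TRAIL receptor, had 2.56 and 1.06 FPKM (log2 ratio -1.20). The death domain receptor with the highest level in both libraries was Tnfrsf21 (DR6), with 31.7 and 27.2 FPKM. Its log2 ratio of -0.22 became 0.11 after correction for transcript length and GC content. Tnfrsf25 had 0.0956 and 0.137 FPKM, and Ngfr was listed at 0 in both libraries. Summed over the 6 genes, death domain receptors had 46.0 FPKM in WT and 52.9 FPKM in STAP-1 KO LSCs. This higher sum rested on Tnfrsf1a, the only one of those with a ratio that was higher. The 15 TRAF-binding receptors had 1549 and 526 FPKM. The latter difference was carried by Tnfrsf9 and Tnfrsf18, and the other 13 TRAF-binding receptors summed to 66.4 and 92.8 FPKM. That sum in turn rested on Cd27, without which the other 12 summed to 62.0 and 46.8 FPKM. Of the TRAF-binding receptors at a mean of 1 FPKM or more, 58.3% were at least 2-fold lower, against 22.2% of all genes. At least 2-fold higher were 16.7% of them, against 11.5%.

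Of the decoy receptors, Tnfrsf11b encodes osteoprotegerin, the soluble decoy of RANKL. It had 28.97 FPKM in WT and 2.89 FPKM in STAP-1 KO LSCs, far lower (log2 ratio -3.28, counting interval from -3.68 to -2.98). Tnfrsf23 and Tnfrsf22, paralogous decoys for TRAIL on chromosome 7, had 3.64 and 0.901 FPKM and 1.48 and 1.71 FPKM. Their neighbour Tnfrsf26 had 16.3 and 6.31 FPKM. Exons of Tnfrsf23 and Tnfrsf26 overlap the antisense transcript E230032D23Rik, and reads of such related genes can be divided arbitrarily.

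When ligands were set beside their known receptors, 17 of 24 pairs reached a mean of 1 FPKM for both genes. In 6 of them ligand and receptor were both at least 2-fold lower in STAP-1 KO LSCs. These were Tnfsf4 with Tnfrsf4, Tnfsf8 with Tnfrsf8, Tnfsf9 with Tnfrsf9, Tnfsf10 with Tnfrsf10b, Tnfsf12 with Tnfrsf12a and Tnfsf13b with Tnfrsf13c. Without the pairs of Tnfsf12 and Tnfsf13, whose reads could be divided in different ways, 5 of 15 pairs were lower in both. These counts stand beside 66.7% of the ligands and 60.0% of the receptors that were lower, and 22.2% of all genes. In 4 pairs the calls were opposite, and in the other 7 at least 1 gene was below the cut-off. No pair was higher in both genes at this cut-off, with Ltb and Ltbr the nearest (log2 ratios 0.94 and 1.23). Levels within a pair could be far apart, and Tnfrsf9 exceeded Tnfsf9 58.4-fold in WT and 53.7-fold in the STAP-1 KO library.

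The opposite pairs belonged to the TNF and RANKL systems. Tnf and Lta were lower while their receptor Tnfrsf1a was higher, and the ratio of Tnfrsf1b to Tnfrsf1a was 0.990 in WT and 0.420 in STAP-1 KO LSCs. The RANKL gene Tnfsf11 was higher while its receptor Tnfrsf11a and its decoy Tnfrsf11b were lower. In FPKM, the ratio of Tnfsf11 to Tnfrsf11b was 0.0727 in WT and 3.65 in the STAP-1 KO library, so that the decoy transcript prevailed in the former and the ligand transcript in the latter. For some receptors no ligand transcript was listed above 0. Tnfrsf18 had 232 FPKM in the WT library with Tnfsf18 listed at 0, and Cd27 had 46.1 FPKM in STAP-1 KO LSCs with Cd70 listed at 0.

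**Figure D3:**
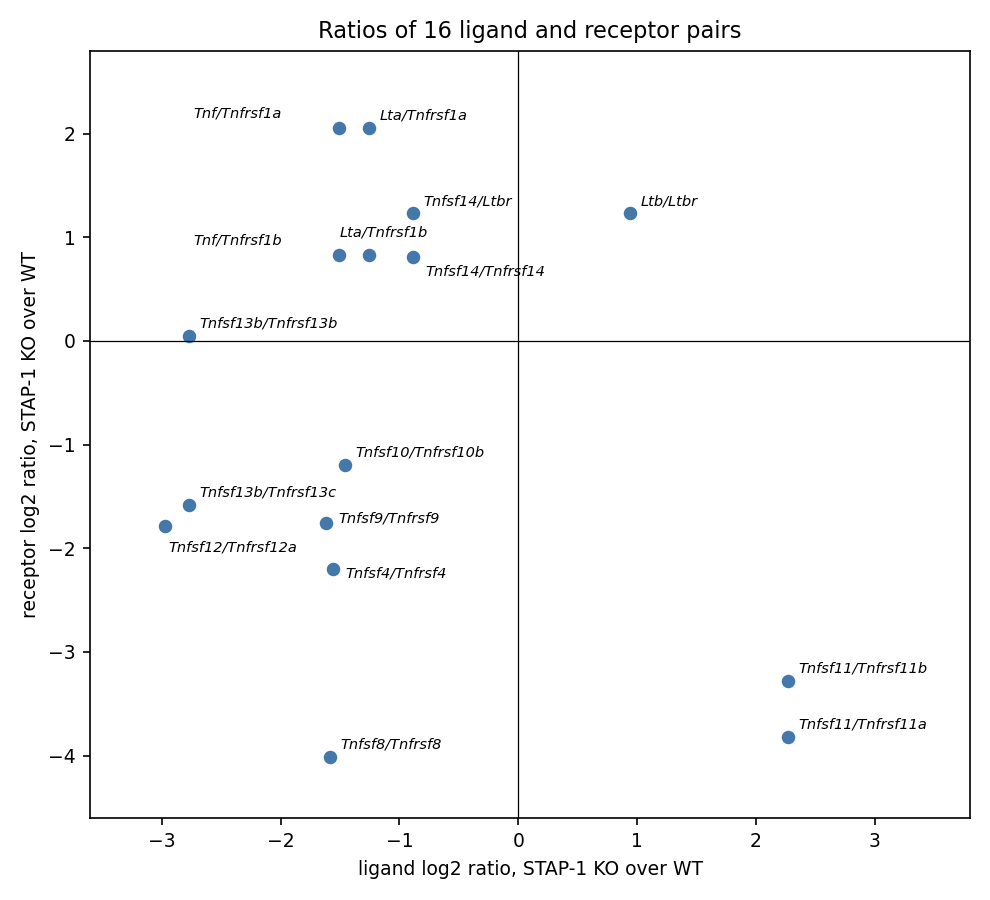
Log2 ratio of the ligand (horizontal axis) against that of its receptor (vertical axis), both STAP-1 KO over WT, for the 16 pairs in which both genes have a ratio. The lower left holds 6 pairs that were lower in both genes, the lower right Tnfsf11 (2.27) with Tnfrsf11a (-3.82) and Tnfrsf11b (-3.28), and Ltb with Ltbr stands alone at the upper right.

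The genes of the family lie in clusters on the chromosomes, and neighbours were compared after their values had been seen. The receptors that were at least 2-fold higher, Cd27, Ltbr and Tnfrsf1a, are all on chromosome 6 within 130 kb (GRCm38, from 125232622 to 125362484). In a window that reached 100 kb beyond both ends, 7 other genes reached a mean of 1 FPKM. None of those 7 was at least 2-fold higher, 1 was at least 2-fold lower, and their log2 ratios ran from -1.22 to 0.92 around a median of 0.03. On chromosome 17, Ltb, Tnf and Lta lie within 10.9 kb (from 35194439 to 35205351), and Ltb stood apart from Tnf and Lta in direction. The 11 other genes in a window of the same kind had a median log2 ratio of -0.18. Among those 11, Prrc2a (-1.92) and Bag6 (-1.47) were at least 2-fold lower and 0 were at least 2-fold higher. After correction for transcript length and GC content these values were -0.61 and -0.93, under the cut-off. Tnf, Lta and Ltb had -1.78, -1.49 and 0.72 after the same correction. On chromosome 4, Tnfrsf4 and Tnfrsf18, which lie within 15.1 kb, were both lower. In the same kind of window, 5 other genes reached a mean of 1 FPKM, with 1 higher, 1 lower and a median log2 ratio of 0.56, and the lower gene, Sdf4 (94.7 and 47.2 FPKM), lies beside Tnfrsf4. Sdf4 was only just past the cut-off and had a log2 ratio of -0.38 after the same correction, against -2.57 for Tnfrsf4. Of the other members on chromosome 4, Tnfrsf8, Tnfrsf9 and Tnfsf8 were lower, Tnfrsf1b and Tnfrsf14 were under the cut-off, and Tnfrsf25 and Tnfsf15 were below a mean of 1 FPKM.

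**Figure D4:**
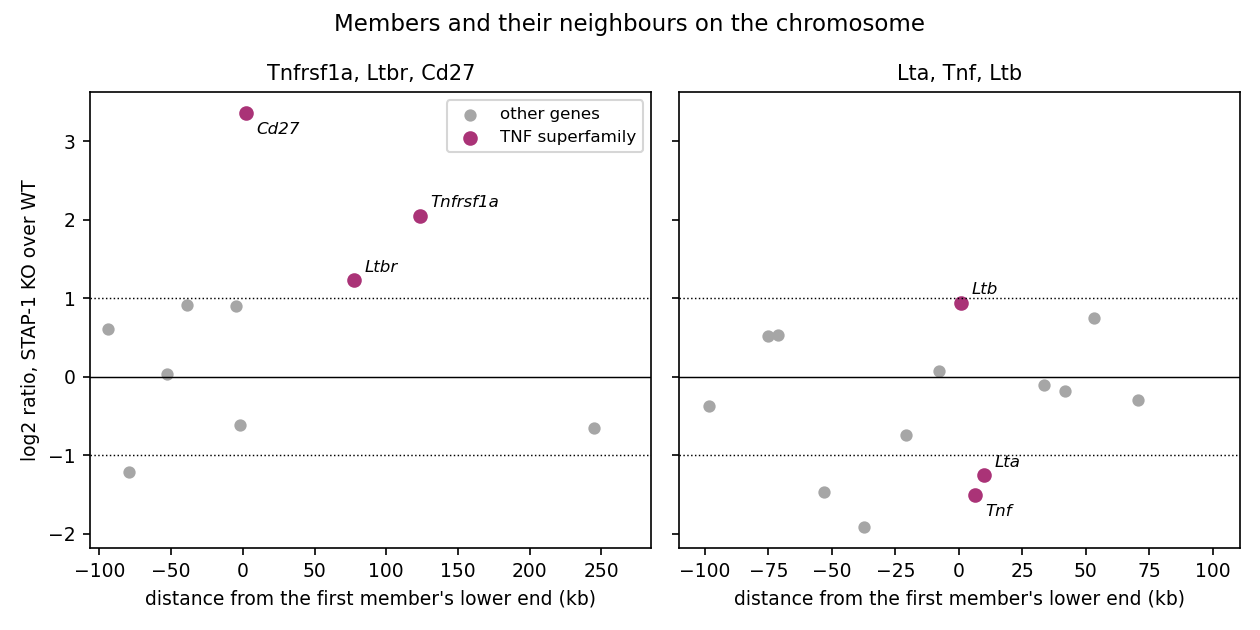
Log2 ratio of STAP-1 KO over WT for genes at a mean of 1 FPKM or more around Cd27, Ltbr and Tnfrsf1a (left) and around Ltb, Tnf and Lta (right), against the distance of the gene's middle from the lower end of the first member in kb. Members are coloured and other genes grey, and on the left the 3 members, at 3.36, 1.23 and 2.05, stand above all other genes of the window.

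The ratio of the libraries depended on transcript length in general. Across 10875 genes with an annotated length and a mean of 1 FPKM or more, Spearman's rank correlation of transcript length with the log2 ratio was -0.40, a description across genes of 1 pair of libraries. Among the 32 members the same correlation was -0.15, and their median transcript had 2016 bases. After the median of genes of like length and then of like GC content had been subtracted, the median log2 ratio of the members was -1.52. All 24 members past the cut-off with a ratio were still past it, and Tnfsf14 (-1.01) and Tnfrsf1b (1.21) passed it in addition. With the correction for length alone, Tnfsf10 (-0.79) and Ltbr no longer passed.

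**Figure D5:**
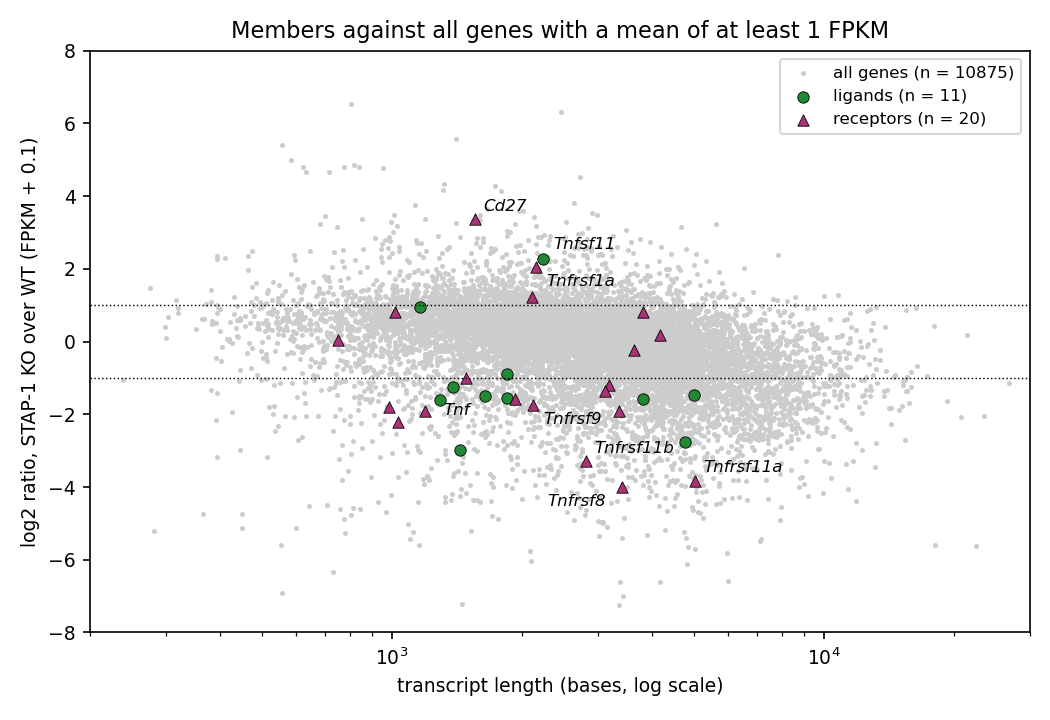
Log2 ratio of STAP-1 KO over WT against transcript length in bases (log axis) for 10875 genes in grey, with 11 ligands as circles and 20 receptors as triangles, and dotted lines at 2-fold. The grey cloud falls toward long transcripts, whereas members below -1 are found among short and long transcripts alike (grey points beyond the ends of the axes are not drawn).

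Promoter windows from RefSeq (GRCm38.p6), which reach from 250 bases before to 50 bases after a transcript start, were found for 32 of the 42 members, 36 windows in all. Both strands were searched for the NF-κB consensus motif, for the STAT motif TTCNNNGAA and for the AP-1 motif TGANTCA. The NF-κB motif was found in 3 of the 36 windows (8.33%), against 4.51% of all 32851 windows, the STAT motif in 9 (25.0%), against 8.30%, and the AP-1 motif in 7 (19.4%), against 7.81%. Windows with the STAT motif belonged to genes that were lower (Fas, Lta, Tnfrsf18 and Tnfrsf9), higher (Tnfrsf1a), under the cut-off (Ltb and Tnfrsf1b) or below a mean of 1 FPKM (Tnfrsf19 and Tnfrsf25). A match is a description of letters and not evidence of binding.

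The 250 bases before the start are shown for Tnfrsf9, the member with the highest level, at the start whose window held all the motifs, for Ltb, which held the NF-κB and STAT motifs and differed in direction from Tnf, and for Cd27, which had the largest ratio above 0 and none of them. Capitals mark the matches. In Tnfrsf9 (chr4:150927749-150927998, plus strand) these are, from left to right, the STAT motif, a pair of overlapping NF-κB matches and the AP-1 motif. In Ltb (chr17:35194257-35194506, plus strand) they are the STAT motif and the NF-κB motif. Cd27 lies on the minus strand (chr6:125237028-125237277). A second annotated start of Tnfrsf9 had no match, and the files do not tell which start was used.
Tnfrsf9: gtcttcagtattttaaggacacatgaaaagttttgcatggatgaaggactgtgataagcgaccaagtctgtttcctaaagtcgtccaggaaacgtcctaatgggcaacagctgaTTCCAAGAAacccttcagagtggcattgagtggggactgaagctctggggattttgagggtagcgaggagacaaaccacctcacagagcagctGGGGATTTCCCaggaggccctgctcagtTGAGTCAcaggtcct
Ltb: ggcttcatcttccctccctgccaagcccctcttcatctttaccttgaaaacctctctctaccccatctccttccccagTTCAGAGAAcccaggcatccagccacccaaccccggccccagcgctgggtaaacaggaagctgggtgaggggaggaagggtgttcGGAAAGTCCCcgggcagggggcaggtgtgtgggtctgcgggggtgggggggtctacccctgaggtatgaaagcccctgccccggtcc
Cd27: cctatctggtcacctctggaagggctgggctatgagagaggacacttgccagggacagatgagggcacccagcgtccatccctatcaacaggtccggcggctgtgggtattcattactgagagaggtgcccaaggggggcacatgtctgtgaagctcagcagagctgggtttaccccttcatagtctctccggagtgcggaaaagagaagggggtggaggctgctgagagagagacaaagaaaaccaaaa

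Genes that carry the signal of these receptors were lower or under the cut-off. Of a list of 41 receptor-proximal signaling genes, 38 were in the files, all at a mean of 1 FPKM or more. Of these, 12 were at least 2-fold lower (31.6%, against 22.2% of all genes) and 0 were at least 2-fold higher (against 11.5%). Their median log2 ratio of -0.66 became -0.25 after correction for length and GC content, and the count of lower genes became 8 (21.1%, against 17.4% of all genes), with 0 higher. Ordered by the log2 ratio at a pseudocount of 1 FPKM, the lowest were Traf1, a TRAF adaptor that is itself induced by NF-κB (28.1 and 2.57 FPKM), the NF-κB inhibitor Tnfaip3 (183 and 28.4 FPKM), the adaptor Traf5 (16.6 and 4.18 FPKM), the TNFR1-binding Madd (14.9 and 3.94 FPKM) and the TAK1-binding Tab3 (6.91 and 1.49 FPKM). The death domain adaptors were nearly level, with Tradd at 30.7 and 29.7 FPKM and Fadd at 4.11 and 4.41 FPKM. Casp8, the initiator caspase of the death receptors, had 50.2 and 92.8 FPKM, and its inhibitor Cflar had 6.59 and 3.13 FPKM (log2 ratios 0.89 and -1.05). After the correction the ratio of Cflar was -0.24.

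Marker genes of other cell types moved between the libraries as well, and their part in the differences of the TNF superfamily was not tested. In bulk samples, fewer cells of a type and less RNA per cell cannot be told apart. Sums run over all genes of a list that were in the files, and counts of lower and higher over those at a mean of 1 FPKM or more. Of all genes at such a mean, 22.2% were at least 2-fold lower and 11.5% at least 2-fold higher. Of 12 mast cell and basophil markers, 11 were at least 2-fold lower in STAP-1 KO LSCs, their summed level was 52168 and 5395 FPKM, and Cpa3 (17984 and 1774.5 FPKM), Cma1 (13924 and 1168 FPKM) and Tpsb2 (7016 and 185 FPKM) led the list. Of 8 neutrophil primary granule markers, 5 were higher (sum 2292 and 6638 FPKM). The most abundant were Mpo (248 and 1973 FPKM), which was among the 5, and Calr (777 and 956 FPKM) and Nkg7 (464 and 795 FPKM), which were under the cut-off. Of 9 dendritic cell markers at a mean of 1 FPKM or more, 7 were lower and 1 was higher (sum 1351 and 583 FPKM), and Cd74 (963 and 226 FPKM), H2-Aa (244.6 and 81.8 FPKM) and Bst2 (72.0 and 244 FPKM) were the most abundant.

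Many of these ligands and receptors are best known from lymphoid cells. Most of the listed marker genes of such cells had a mean below 1 FPKM, with the exceptions named below. A low value in these files does not show that a transcript was absent, since Gapdh, which all cells use, was listed at 0.391 and 1.03 FPKM. The T cell genes Cd3e (0.869 and 1.09 FPKM), Cd3d (0.713 and 0.681 FPKM), Cd4 (0.139 and 0.463 FPKM) and Cd8a (0.369 and 0.132 FPKM) were near or below 1 FPKM. Of the 11 T and NK cell markers in the files, 4 reached a mean of 1 FPKM. Of these, 2 were lower (Gzma and Gzmb) and 1 was higher (Cd3g). Il2rb (3.81 and 1.92 FPKM) was just under the cut-off. The summed level of the list, 9674 and 2321 FPKM, was almost entirely Gzmb (9642 and 2302 FPKM), which mast cells also express, followed by Gzma (21.1 and 8.70 FPKM) and Cd3g (1.80 and 5.04 FPKM). The B cell genes Pax5 and Ebf1 were listed at 0 in both libraries, and only Cd79b of the 9 B cell markers reached a mean of 1 FPKM (3.10 and 17.8 FPKM, sum of the list 4.28 and 19.5 FPKM). Cd79b was at least 2-fold higher in STAP-1 KO LSCs. Next in abundance were Vpreb1 (0.476 and 0.853 FPKM) and Igll1 (0.202 and 0.433 FPKM). The other lists were mixed, and the number of genes given for each is that at a mean of 1 FPKM or more. Monocyte and macrophage markers (7 genes, 2 lower and 3 higher, sum 170 and 152 FPKM), erythroid markers (7 genes, 2 lower, sum 675 and 410.4 FPKM), megakaryocyte and platelet markers (8 genes, 2 lower and 2 higher, sum 201 and 137 FPKM), stromal and endothelial markers (4 genes, 2 lower and 1 higher, sum 60.9 and 30.7 FPKM) and the stem cell and sorting markers (9 genes, 4 lower and 1 higher, sum 1719 and 1328 FPKM) had median log2 ratios of -0.04, -0.40, 0.20, -1.25 and -0.54, in this order. The most abundant of the stromal and endothelial markers were Pecam1 (46.9 and 23.4 FPKM), Pdgfrb (8.38 and 2.88 FPKM) and Col1a2 (4.68 and 0.310 FPKM).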

How the data were processed

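RNA-seq of 1 WT and 1 STAP-1 KO library was used. cDNA was generated with a SMART-Seq v4 low-input kit, libraries were made with a Nextera XT kit, and 75-base single-end reads were obtained. The authors mapped the reads to mm10 with TopHat2 2.0.13 and Bowtie2 2.2.3 and deposited FPKM values from Cuffnorm 2.2.1. SAMtools is version 0.1.19 in the submitters' processing notes and another in the methods, and the annotation, the scaling and the strand setting are not given in the sources used here. FPKM values hide read numbers, so effective depths were fitted to values below 0.3 FPKM of genes with 1 RefSeq transcript (1248 for WT and 1559 for STAP-1 KO). When 212 and 208 bases were taken off each transcript, 53.4% and 55.0% of the values came out whole to 0.02 reads, where 4% would by chance. For a transcript of 2000 bases, 3 reads correspond to 0.224 and 0.160 FPKM.

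Computations used scipy 1.17.1, pandas 2.3.3 and numpy 2.4.6 under Python 3.11.15. Log2 ratios had a pseudocount of 0.1 FPKM, which understates differences of low genes. Symbols were matched to GENCODE M21 (GRCm38), with 20911 found as written, 1940 through older symbols and 433 unmatched. Corrections subtracted the median of 20 bins of transcript length, then of GC content. Steps were tested on simulated data. Every member whose mean reached 1 FPKM was named with both values, as were the 3 most abundant genes of marker lists with a median log2 ratio beyond 1, and of the signaling list the 5 lowest at a pseudocount of 1 FPKM (Tradd, Fadd, Casp8 and Cflar were added after their values were seen). The members, lists and alternatives were chosen with earlier results of these data known. The chromosome neighbours compared and the promoters shown, the corrected count of signaling genes and the pair count without Tnfsf12 and Tnfsf13 were chosen after their values had been seen. So was the sum of TRAF-binding receptors without Cd27.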

Additional observations from a re-analysis of the deposited data

How the results depend on the processing

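With 1 library per genotype, settings could be changed but no replicate left out. No paired analysis was possible because each genotype has 1 library. With a mean of at least 5 FPKM, 11 of 20 members were lower and 4 higher (against 18.7% and 10.8% of all genes). At a 4-fold cut-off 6 were lower and 4 higher (against 8.46% and 2.07%), and at 1.5-fold 21 were lower and 8 higher (against 32.3% and 25.3% of all genes). Leaving out the 7 members whose exons overlap another gene, chosen after seeing the data, gave 15 lower and 3 higher of 25, or 60% and 12%, against 22.1% and 11.5% of all genes, so that the share of higher members was near that of all genes. The median of the signaling list was -0.25 after correction for length and GC content. Fas passed the cut-off by little and lost it under 2 of the 3 scalings and, with Lta and Tnfrsf10b, at a pseudocount of 1 FPKM. No member past the cut-off was past it in the opposite direction under any of these settings. The median of the members ran from -1.52 to -1.15 over the settings in which it was computed. No read-through, antisense or opposite-strand entry was among the members, so leaving such entries out could not change a value. Depth limits the low members, and 13 of the 32 had fewer than 100 estimated reads in both libraries.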

Other observations

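Further family genes whose symbols follow another scheme were measured in the same libraries. Eda2r, a receptor of ectodysplasin A2, had 14.0 FPKM in WT and 1.61 FPKM in STAP-1 KO LSCs (log2 ratio -3.05), although Eda itself had 0.0566 and 0 FPKM. Relt, a receptor of hematopoietic tissue, had 24.6 and 20.4 FPKM, and its homologue Rell1 had 20.7 and 8.38 FPKM (log2 ratio -1.29). Edar was listed at 0 in both libraries, its adaptor Edaradd had 0.118 and 0.0968 FPKM, and Rell2 was listed at 0 in WT and at 1.81 FPKM in STAP-1 KO LSCs. These genes were chosen by name, with earlier results of these data known.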
